A study of Mus musculus with 9 samples.

Results

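A set of 10 genes that make, bind or cut the hyaluronan and versican matrix was followed through RNA sequencing of the mouse cardiac outflow tract. The 10 symbols are Has1, Has2 and Has3, Vcan, Hapln1 and Cd44, Hyal1 and Hyal2, and Adamts5 and Adamts9, and all of them are among the 48397 symbols of the count tables. Of these 10 genes, 8 passed a filter on low counts that left 16522 genes to test, and Has1 and Has3 did not. The members were chosen by symbol and known role, but with earlier results of these libraries in view, namely their differences between genotypes and between litters. How far those values weighed in the choice is not recorded, so every value below describes these genes and supports no claim about matrix genes as a class.

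The libraries came from outflow tracts dissected at embryonic day 12.5 on a C57BL/6J background. Of the 9 libraries, 5 carried a homozygous deletion of the enhancer of Nkx2-5 that is active in the anterior second heart field (genotype Nkx2-5delta-enh/delta-enh), and 4 came from wild-type littermates (Nkx2-5+/+). Whether each library stands for 1 embryo or a pool is not given in the labels, so the p-values below reflect sample-to-sample spread alone, part of which may be technical. A number in the names of the deposited count files was read as a litter, which is an assumption. By that number, deletion 1 and 2 and wild type 1 and 2 formed the first litter, and deletion 3 and 4 and wild type 3 and 4 the second. The number of deletion 5 occurs once and has the digits of the second litter transposed, so deletion 5 was kept apart unless stated.

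Hyaluronan is a long unsulfated sugar chain that is made at the plasma membrane by the hyaluronan synthases and pushed straight into the extracellular space. There it holds water and binds versican, a large chondroitin sulfate proteoglycan, and the link protein encoded by Hapln1 locks them together. In the embryonic heart this swollen matrix, the cardiac jelly, fills the cushions of the outflow tract and the atrioventricular canal, into which endocardial and neural crest cells move before the cushions are remodelled into valves and septa. Mouse embryos without Has2 or without Vcan fail to form cushions, and cleavage of versican by Adamts proteases accompanies their remodelling.

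Depth was 27707435 to 49094225 counts assigned to genes per library, and no 2 libraries were alike enough to be the same library. Nkx2-5 itself had 16.5, 24.4, 17.8, 11.4 and 17.4 CPM (gene counts scaled to a common library size) in deletion 1 to 5, against 18.8, 42.0, 45.0 and 39.5 CPM in wild type 1 to 4. Its log2 fold change was -1.05 (SE 0.26, edgeR adjusted p 0.896), and wild type 1 was lower than deletion 2. Markers of heart muscle, smooth muscle and cushion mesenchyme were abundant in all 9 libraries (mean over groups, Tnnt2 1358 CPM in deletion and 1575 CPM in wild type, Acta2 1385 and 1777 CPM, Postn 842 and 588 CPM), while Nkx2-1 of lung epithelium was at 0 in every wild-type library and averaged 0.0850 CPM in the deletion libraries. Deletion 2 stood apart, since its 8 markers of neurons and Schwann cells summed to 1880 CPM, against at most 68.3 CPM in the other libraries.

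RefSeq promoter entries (GRCm38.p6, 250 bases before to 50 bases after the annotated start) matched 7 of the 10 genes. They are printed below, 5′ to 3′ on the strand of the gene, for the 4 of them that differed between the litters in the comparison described further on. Capitals mark matches to the E-box CANNTG, searched on both strands.
Vcan (chr13:89742463-89742762, minus strand): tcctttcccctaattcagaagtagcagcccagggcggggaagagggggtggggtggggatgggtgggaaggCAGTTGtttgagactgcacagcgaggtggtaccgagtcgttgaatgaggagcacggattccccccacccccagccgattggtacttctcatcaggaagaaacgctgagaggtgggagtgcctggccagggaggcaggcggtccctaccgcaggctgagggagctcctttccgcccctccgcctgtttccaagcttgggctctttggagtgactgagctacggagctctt
Hapln1 (chr13:89540386-89540685, plus strand): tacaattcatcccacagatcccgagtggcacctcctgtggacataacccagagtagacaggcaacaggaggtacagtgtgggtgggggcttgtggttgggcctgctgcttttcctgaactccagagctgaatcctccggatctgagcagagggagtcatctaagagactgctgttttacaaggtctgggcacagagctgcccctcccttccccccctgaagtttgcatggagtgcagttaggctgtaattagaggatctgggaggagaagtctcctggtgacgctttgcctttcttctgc
Cd44 (chr2:102901616-102901915, minus strand): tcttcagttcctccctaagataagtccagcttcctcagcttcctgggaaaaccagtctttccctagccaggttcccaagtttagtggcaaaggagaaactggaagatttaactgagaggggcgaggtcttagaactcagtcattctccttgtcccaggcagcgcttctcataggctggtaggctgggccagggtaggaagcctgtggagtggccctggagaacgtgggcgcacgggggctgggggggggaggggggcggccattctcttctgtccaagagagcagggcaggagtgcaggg
Hyal2 (chr9:107568913-107569212, plus strand): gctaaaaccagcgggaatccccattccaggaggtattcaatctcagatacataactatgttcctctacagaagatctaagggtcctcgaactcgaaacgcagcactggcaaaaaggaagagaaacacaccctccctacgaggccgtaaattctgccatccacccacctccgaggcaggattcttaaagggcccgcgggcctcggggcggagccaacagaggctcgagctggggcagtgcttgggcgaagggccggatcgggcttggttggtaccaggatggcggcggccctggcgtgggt
One E-box, CAGTTG, was found in the Vcan window, and none in the windows of Hapln1, Cd44 and Hyal2. Across 32851 promoters of this length, 72.3% held CANNTG. The core of the Nkx2-5 binding site, AAGTG, which 46.4% of promoters held, and its longer form TNAAGTG, held by 11.5%, had no match on either strand in these 4 windows. TATAAA (13.6% of promoters) and the TCF and LEF site CTTTGNT (18.6%) were not found in them either. The letters of these windows say nothing about binding elsewhere in the loci.

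On mm10 the genes lie on 8 chromosomes, and 2 pairs are neighbours. Hapln1 (chr13:89539796-89611652, plus strand) and Vcan (chr13:89655312-89742509, minus strand) point at each other across 43.7 kb, and Hyal2 (chr9:107567945-107572779) lies 4.1 kb upstream of Hyal1 (chr9:107576927-107581710) on the same strand. Has2 is at chr15:56665627-56694539, Cd44 at chr2:102811141-102901665, Adamts5 at chr16:85856173-85901828 and Adamts9 at chr6:92772699-92943492, all on the minus strand. Has1 (chr17:17843323-17855205) shares a chromosome with Nkx2-5 but lies 8983.5 kb from it. Has3 is at chr8:106870242-106884566 on the plus strand.

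Levels can be compared between genes only per length, here as CPM per kilobase of exon over all 9 libraries (mean ± SD, n = 9). Hyal2, a membrane-anchored hyaluronidase, was highest at 48.1 ± 8.72, followed by Hapln1 at 37.4 ± 20.4 and Vcan at 32.7 ± 17.7. Hyal2 exceeded Hapln1 in 6 of 9 libraries and Hapln1 exceeded Vcan in 5 of 9, so the order of these 3 genes was not settled by the libraries. Has2, the main synthase of the developing heart, followed at 15.7 ± 9.72 and Cd44, the cell surface receptor for hyaluronan, at 13.7 ± 4.26, with Has2 above Cd44 in 6 of 9 libraries. Adamts5, a secreted protease that cuts versican and aggrecan, stood at 7.34 ± 2.54, below Cd44 in 7 of 9 libraries. Adamts9, another protease that cuts versican, averaged 1.68 ± 0.466 and Hyal1, the lysosomal hyaluronidase, 1.12 ± 0.301, with Adamts9 above Hyal1 in 8 of 9. The length used for Hyal1 includes 1920 exon bases (50.8%) shared with Naa80 on the same strand, so its place below Adamts9 is not settled. Has3 (0.0499 ± 0.0705) and Has1 (0.0430 ± 0.0481) were far below all others, and Has3 exceeded Has1 in 3 of 9 libraries.

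**Figure D1:**
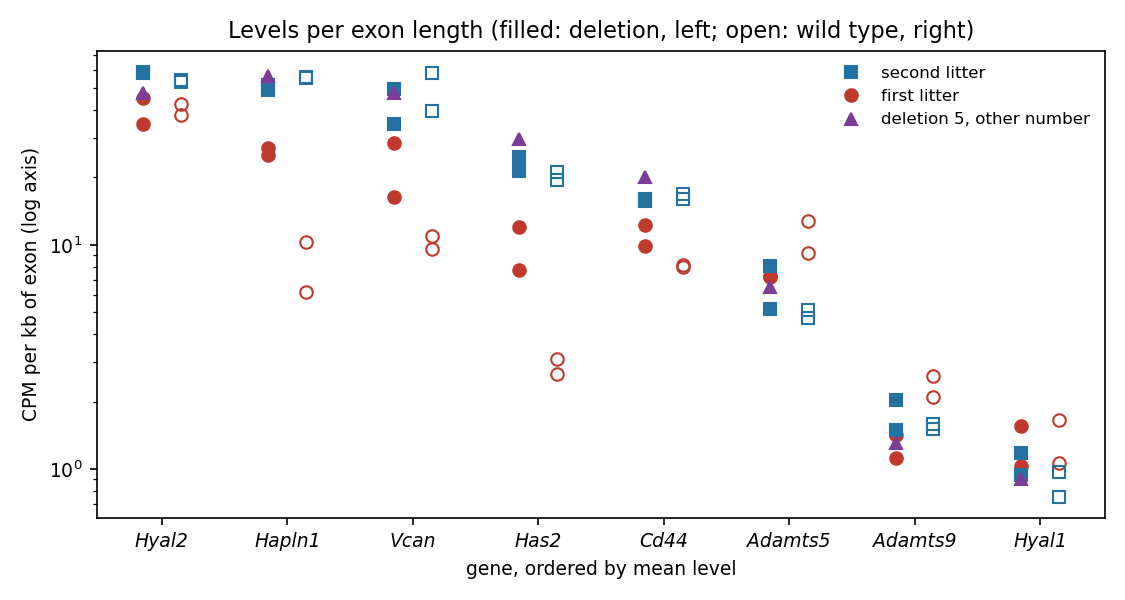
Level of the 8 tested genes in CPM per kilobase of exon (log axis), 1 point per library, with deletion libraries filled on the left and wild-type libraries open on the right of each gene, and litter by colour and shape. Levels of Has2, Hapln1 and Vcan spread widely, and the 2 wild-type libraries of the first litter sit below all other libraries, while Hyal2, the gene with the highest mean, covers a narrow range.

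Has2 supplied almost all synthase reads. It took 99.2% to 99.8% of the reads of the 3 synthases in the 5 deletion libraries. In wild type 3 it was 99.72% and in wild type 4 99.65%, while in wild type 1 it was 90.3% (95% exact binomial interval 87.4% to 92.7%) and in wild type 2 it was 91.7% (88.9% to 94.0%). These intervals cover counting error only. The 2 wild-type libraries of the first litter thus lay below the other 7, whose intervals all begin at or above 98.8%.

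Has1 and Has3, the other synthases, were at the edge of detection. Has1 had 5, 4, 9, 0 and 8 reads in deletion 1 to 5, against 2, 29, 1 and 10 reads in wild type 1 to 4, and the groups overlapped. Has3 had 0, 0, 2, 20 and 6 reads in deletion 1 to 5, against 49, 12, 7 and 3 reads in wild type 1 to 4. Has3 was thus 0 in both deletion libraries of the first litter and highest in wild type 1 of that litter, with overlap once all libraries are counted. A count of 0 allows up to 3 reads. Has3 passed the filter on low counts only in the fit of the first litter alone, through its wild types, so neither a test nor a fold against libraries at 0 is given. Reads of Has3 cannot be told from those of Chtf8 over the 352 exon bases that the genes share on opposite strands, since the strand setting of the counting is not given in the sources used here.

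Has2 had 50.7, 32.7, 104, 90.6 and 125.5 CPM in deletion 1 to 5, against 13.2, 11.2, 82.5 and 89.6 CPM in wild type 1 to 4. The lowest 2 libraries were the wild types of the first litter, the next 2 the deletions of that litter, and the remaining 5 lay between 82.5 and 125.5 CPM, so the groups overlapped. Means were 80.8 ± 38.3 CPM in deletion (SD, n = 5) and 49.1 ± 42.7 CPM in wild type (SD, n = 4), and the log2 fold change was 0.72 (SE 0.67, edgeR adjusted p 0.939). The SD of its log2 CPM over the 9 libraries, 1.30, was larger than that of 93.9% of the tested genes. Has2 shares 182 exon bases, 4.3% of its own, with the antisense transcript Has2os, which had 9 to 34 reads per library.

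Vcan, the proteoglycan that hyaluronan gathers in the cushions, had 412, 235, 718, 497 and 686 CPM in deletion 1 to 5, against 138, 159, 568 and 841 CPM in wild type 1 to 4. Wild type held both the lowest 2 libraries and the highest one. Means were 510 ± 200 CPM in deletion (SD, n = 5) and 426 ± 340 CPM in wild type (SD, n = 4), with a log2 fold change of 0.26 (SE 0.55, edgeR adjusted p 0.970). Counts per gene cannot separate the splice forms of versican, which differ in their chondroitin sulfate domains.

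Hapln1, the link protein, had 149, 160, 288, 304 and 332 CPM in deletion 1 to 5, against 61.0, 36.3, 326 and 330 CPM in wild type 1 to 4. Deletion 1 to 4 lay between the low and the high wild types, and deletion 5 was the highest of the 9 libraries. The means of 246 ± 85.9 CPM in deletion (SD, n = 5) and 188 ± 162 CPM in wild type (SD, n = 4) gave a log2 fold change of 0.39 (SE 0.62, edgeR adjusted p 0.957). Cd44 had 66.9, 83.3, 106, 109 and 136 CPM in deletion 1 to 5, against 53.9, 55.3, 108 and 114 CPM in wild type 1 to 4. Again wild type 1 and 2 were lowest, and deletion 5 was highest. Its log2 fold change was 0.27 (SE 0.27, edgeR adjusted p 0.939).

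The degrading enzymes showed other patterns. Hyal2 had 149, 114, 191, 194 and 156 CPM in deletion 1 to 5, against 125, 140, 176 and 179 CPM in wild type 1 to 4, and its log2 fold change was 0.053 (SE 0.17, edgeR adjusted p 0.984). Hyal1 had 5.90, 3.91, 4.45, 3.56 and 3.43 CPM in deletion 1 to 5, against 6.23, 4.02, 2.85 and 3.66 CPM in wild type 1 to 4, with a log2 fold change of 0.022 (SE 0.28, edgeR adjusted p 0.996). Neither hyaluronidase separated the genotypes, and replicate 1 was the highest library for Hyal1 in both. Hyal1 values are uncertain, because 1920 of its exon bases (50.8%) are shared with Naa80 and 159 with Hyal3 on the same strand.

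Adamts5 had 77.5, 78.7, 55.8, 86.6 and 70.2 CPM in deletion 1 to 5, against 138, 99.5, 55.2 and 50.7 CPM in wild type 1 to 4. The wild types lay at both ends, above all deletion libraries in the first litter and below them in the second. Its log2 fold change was -0.22 (SE 0.28, edgeR adjusted p 0.948). Adamts9 had 21.3, 16.8, 22.5, 30.6 and 19.7 CPM in deletion 1 to 5, against 39.0, 31.6, 23.9 and 22.8 CPM in wild type 1 to 4, and deletion 4 was the only deletion library inside the wild-type range, with the other 4 below it. Its log2 fold change of -0.40 (SE 0.20) had the lowest unadjusted p of the tested members, 0.0739, with an edgeR adjusted p of 0.896. Over 1381 exon bases (9.18%) Adamts9 overlaps A730049H05Rik on the opposite strand, whose reads cannot be told apart from its own there.

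**Figure D2:**
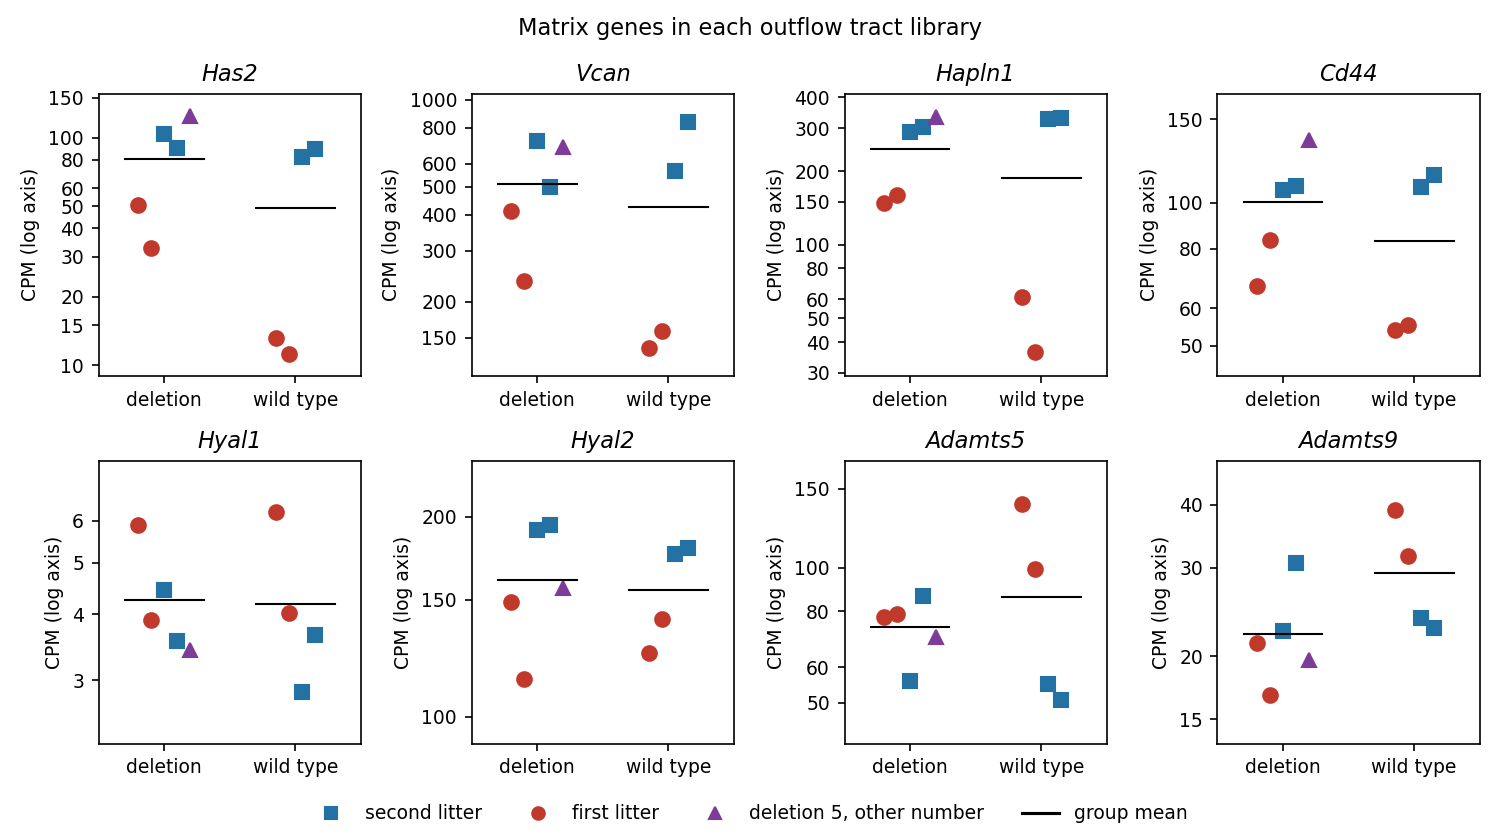
CPM (log axis) of the 8 tested genes in each library, deletion left and wild type right, with litter by colour and shape and the group mean as a line. For Has2, Vcan, Hapln1 and Cd44 the first litter lies below the second in both genotypes, and its wild types lie below its deletions, while for Adamts5 and Adamts9 the wild types of the first litter are the highest libraries.

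Over all 9 libraries, then, 0 of the 8 tested genes passed the edgeR test of deletion against wild type, beside 0 of 16522 genes (0%). No member reached an unadjusted p under 0.05 (0 of 8), beside 5.27% of all genes, and DESeq2 called 0 members, beside 38 of 18943 genes (0.201%). None of the 8 had groups without overlap, as 1.8% of all tested genes had. Fold changes were above 0 for 6 of 8 members, beside 50.6% of all genes, with a median log2 fold change of 0.16, beside 0.0029 over all genes. With litter as a factor the log2 fold change of Has2 was 0.96 (SE 0.32, unadjusted p 0.0167, edgeR adjusted p 0.798) and that of Hapln1 0.75 (SE 0.37, edgeR adjusted p 0.801), and in this fit too 0 members passed. Outflow tract tissue is a mixture, and fewer cells of a type and less RNA per cell cannot be told apart in these counts.

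More genes differed between the litters than between the genotypes. In a fit on genotype and litter, 5 of the 8 members were higher in the second litter than in the first and 0 were lower, beside 5.48% of all genes higher and 4.17% lower (9.65% in all). The log2 difference was above 0 for 5 of 8 members, beside 46.6% of all genes, and its median was 0.63, beside -0.028 over all genes. Each of these 5 genes had no overlap between the 4 libraries of the second and the 4 of the first litter, a pattern that 11.1% of all genes showed in that direction.

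Has2 averaged 91.8 ± 9.14 CPM in the second litter and 26.9 ± 18.6 CPM in the first (SD, n = 4 each), a log2 difference of 2.01 (SE 0.33, edgeR adjusted p 0.0123). The difference was 7.07-fold between the wild types of the 2 litters and 2.34-fold between the deletions. Hapln1 averaged 312 ± 19.6 CPM in the second litter and 101 ± 61.9 CPM in the first (SD, n = 4 each), a log2 difference of 1.84 (SE 0.37, edgeR adjusted p 0.0236), and was 6.74-fold higher between the wild types and 1.92-fold between the deletions. Vcan averaged 656 ± 154 CPM in the second litter and 236 ± 125 CPM in the first (SD, n = 4 each), a log2 difference of 1.58 (SE 0.33, edgeR adjusted p 0.0239), with 4.74-fold between the wild types and 1.88-fold between the deletions. For all 3 genes the step between litters was thus wider in wild type than in the deletion.

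Cd44 was higher by a log2 difference of 0.77 (SE 0.12, edgeR adjusted p 0.00999), with 109 ± 3.55 CPM in the second litter and 64.9 ± 13.6 CPM in the first (SD, n = 4 each). Hyal2 was higher by 0.49 (SE 0.098, edgeR adjusted p 0.0201), with 185 ± 8.93 and 132 ± 15.7 CPM in the same order. Adamts5 ran the other way without passing, with 62.0 ± 16.5 CPM in the second litter and 98.5 ± 28.4 CPM in the first (SD, n = 4 each) and a log2 difference of -0.65 (SE 0.23, edgeR adjusted p 0.110). Hyal1 (-0.47, edgeR adjusted p 0.277) and Adamts9 (-0.064, edgeR adjusted p 0.889) did not pass. Without the filter on low counts the adjusted p became 0.0558 for Has2, 0.107 for Vcan and 0.0969 for Hapln1. Has2 and Cd44 passed whichever single library was left out, whereas Vcan lost its call without wild type 1, 2, 3 or 4 or deletion 3, Hapln1 without wild type 1, 3 or 4, and Hyal2 without wild type 3 or 4 or deletion 3 or 4, at adjusted p values up to 0.0927.

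Within the second litter, deletion and wild type were close for most members. Has2 averaged 97.5 CPM in deletion and 86.0 CPM in wild type (n = 2 each), with a log2 fold change of 0.18 (SE 0.097, edgeR adjusted p 0.728). For Vcan the means were 607 CPM in deletion and 704 CPM in wild type, and for Hapln1 296 CPM and 328 CPM, log2 fold changes of -0.22 (SE 0.21, edgeR adjusted p 0.878) and -0.15 (SE 0.067, edgeR adjusted p 0.664). Adamts5 had the widest difference there, with 71.2 CPM in deletion and 52.9 CPM in wild type and a log2 fold change of 0.42 (SE 0.18, edgeR adjusted p 0.655). No member was called, beside 6 of 16267 genes (0.0369%). Has2, Hyal2 and Adamts5 were higher without overlap, and Hapln1 lower, patterns that 19.4% and 19% of all genes showed.

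Within the first litter the differences were wider and had opposite signs for the synthase, versican and its binding partners on one side and the Adamts proteases on the other. Has2 averaged 41.7 CPM in deletion and 12.2 CPM in wild type (n = 2 each), a 3.42-fold difference and a log2 fold change of 1.79 (SE 0.28, edgeR adjusted p 0.462). Hapln1 averaged 154 CPM in deletion and 48.6 CPM in wild type, 3.17-fold apart (log2 1.68, SE 0.28, edgeR adjusted p 0.515), and Vcan 324 CPM and 148 CPM, 2.18-fold apart (log2 1.14, SE 0.29, edgeR adjusted p 0.537). Cd44 averaged 75.1 CPM in deletion and 54.6 CPM in wild type (log2 0.48, SE 0.17, edgeR adjusted p 0.660). All 4 genes were higher in both deletion libraries than in either wild type.

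Adamts5 averaged 78.1 CPM in deletion and 119 CPM in wild type of the first litter, and its log2 fold change was -0.59 (SE 0.20, edgeR adjusted p 0.636). Adamts9 averaged 19.0 CPM in deletion and 35.3 CPM in wild type (log2 fold change -0.87, SE 0.23, edgeR adjusted p 0.537). Both proteases were lower in each deletion library than in either wild type, whereas Hyal1 (log2 -0.047) and Hyal2 (log2 0.0059) overlapped. In this litter 0 members were called, beside 0 of 17073 genes (0%). With an unadjusted p under 0.05, 4 of 8 members were higher and 2 lower, beside 3.38% and 3.78% of all genes. Groups without overlap were found for 4 of 8 higher and 2 lower, beside 17.2% and 20% of all genes.

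**Figure D3:**
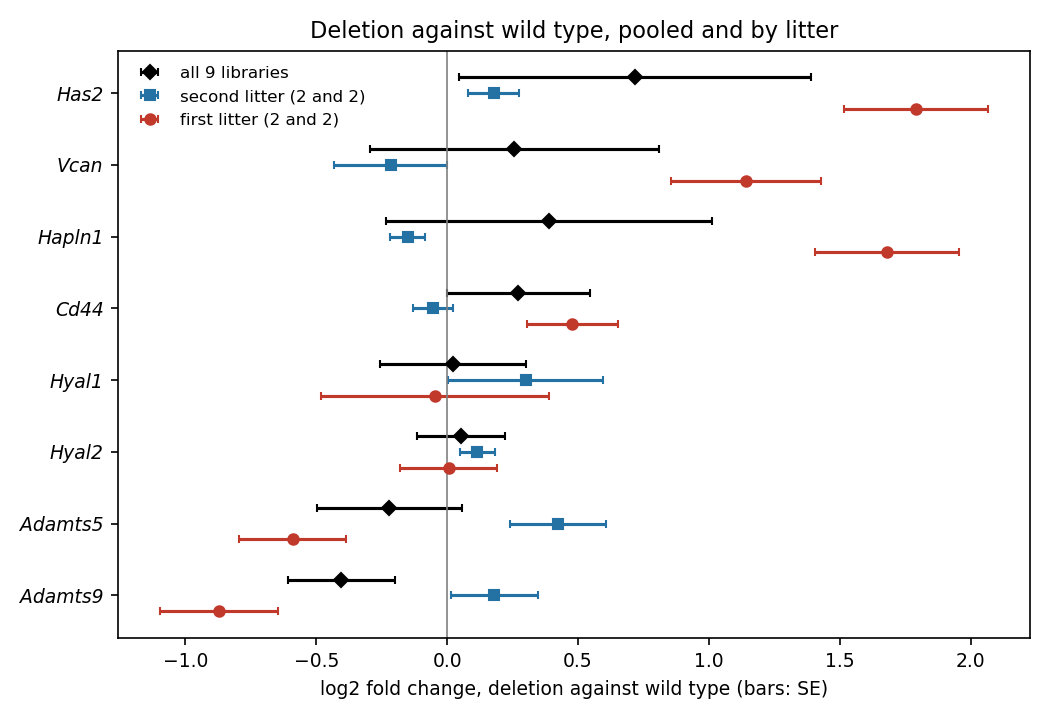
Log2 fold change of deletion against wild type with its SE for the 8 tested genes, over all 9 libraries and within each litter (2 deletion and 2 wild-type libraries each). The first-litter estimates of Has2, Hapln1 and Vcan lie between 1.14 and 1.79 and those of Adamts5 and Adamts9 at -0.59 and -0.87, while the second-litter estimates of all 8 genes lie between -0.22 and 0.42.

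The difference between the litters in the genotype effect was tested in its own right as an interaction on the 8 libraries of the 2 litters. With edgeR, 0 of 8 members passed, beside 2 of 16303 genes (0.0123%). An unadjusted p under 0.05 was reached by 6 of 8 members, 2 higher and 4 lower, beside 4.69% and 3.47% of all genes. The interaction, second minus first litter on the log2 scale, was -1.60 for Has2 (SE 0.29, edgeR adjusted p 0.277), -1.81 for Hapln1 (SE 0.30, edgeR adjusted p 0.224) and -1.34 for Vcan (SE 0.43, edgeR adjusted p 0.498). For Cd44 it was -0.51 (SE 0.18, edgeR adjusted p 0.514), and on the other side 1.03 for Adamts5 (SE 0.31, edgeR adjusted p 0.480) and 1.07 for Adamts9 (SE 0.29, edgeR adjusted p 0.447).

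Under DESeq2, an alternative added after the values were seen, the interaction passed for 3 members, Has2 (adjusted p 0.000206), Hapln1 (adjusted p 2.34e-06) and Vcan (adjusted p 0.0424), beside 184 of 16492 genes (1.12%), or 0.412% in that direction. DESeq2 and edgeR gave nearly the same size, -1.61 and -1.60 for Has2. Without deletion 1, the edgeR interaction was -1.24 for Has2 and -1.86 for Hapln1, and without wild type 1 it was -2.23 for Hapln1. Without deletion 2, the library with the neural markers, the interaction was -1.88 for Has2, -1.76 for Hapln1 and -1.69 for Vcan. Each of these fits leaves 1 library of a genotype in a litter, so only sizes are given here.

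In the first litter some marker lists also differed between deletion and wild type. Sums of heart muscle markers overlapped there (10240 to 12130 CPM in deletion, 6974 to 16690 CPM in wild type), as did those of endothelial, neural and epithelial markers. Of single genes, 17.2% were higher and 20% lower without overlap in that litter. Sums of the 6 smooth muscle markers were 2421 to 2835 CPM in deletion and 3933 to 4071 CPM in wild type of that litter, and sums of the 6 epicardial markers 415 to 715 CPM and 875 to 912 CPM. Sums of the 6 macrophage markers were 101 to 137 CPM in deletion and 188 to 202 CPM in wild type, and those of the 4 erythroid markers 1375 to 3408 CPM and 4505 to 7323 CPM. Summed cartilage markers ran the same way as Has2, Vcan and Hapln1. In the first litter they were at 268 to 361 CPM in deletion and 188 to 209 CPM in wild type. The median log2 fold change over the 3 tested was 0.78 there, that of Col2a1 (edgeR adjusted p 0.601), while Acan was below 0. Over all 9 libraries the median of the 3 was -0.32, with 1 above 0 and 2 below. Of the 10 cushion mesenchyme markers, the median log2 fold change was 0.77 within that litter, 0.15 within the second and 0.38 over all libraries. Over all libraries 3 of them had an unadjusted edgeR p under 0.05, all higher (Postn, Prrx1 and Tbx20), beside 5.27% of all genes. In the other lists such a p was reached, lower, by 4 of 6 smooth muscle, 3 of 6 epicardial and 1 of 3 cartilage markers. It was reached, higher, by 3 of 7 neural markers, and 0 markers of any list were called. The summed level of the cushion mesenchyme markers, 7848 to 9040 CPM in deletion and 9159 to 11660 CPM in wild type of the first litter, did not move the same way as their median. The part of any of these in the matrix gene values was not tested.

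Between the litters, 5.48% of all genes were higher in the second litter and 4.17% lower, shares that stand beside each marker count here. Of the 10 cushion mesenchyme markers, 5 were higher and 0 lower, with a median log2 difference of 0.46. Twist1 was one of them (0.77, edgeR adjusted p 0.0465), while Postn was not (0.24, edgeR adjusted p 0.502). The cartilage markers had the largest positive median of the marker lists, 1.18, with 2 of the 3 tested higher and 1 lower. Col2a1 (1.21, edgeR adjusted p 0.0485) and Col9a1 (1.18, edgeR adjusted p 0.00803), collagens of cartilage, were higher and Acan (-1.88, edgeR adjusted p 0.0468) lower, and the 4 markers summed to 521 to 588 CPM in the second litter and 188 to 361 CPM in the first. Macrophage markers had a median of -1.35 with 4 of 6 lower, neural markers -3.12 with 0 of 7 called, and erythroid markers -1.73 with 0 of 4 called. The neural median includes deletion 2 of the first litter, whose neural markers summed to 1880 CPM, against at most 68.3 CPM in the other libraries. No neural marker value without deletion 2 is given here. Heart muscle markers had a median of 0.16 with 0 of 8 called, and of the endothelial markers 2 were higher and 2 lower, Cdh5 among those lower (-0.61, edgeR adjusted p 0.0215). Over all 9 libraries the leading markers had log2 fold changes, deletion against wild type, of 0.52 and 0.36 for Postn and Twist1, -0.047 and 0.25 for Pecam1 and Cdh5 of endothelium, and -0.21 and -0.0097 for Tnnt2 and Myl7 of heart muscle. They were -0.36 and -1.45 for Acta2 and Myh11 of smooth muscle, -0.55 and -0.58 for Wt1 and Upk3b of epicardium, and -0.16 and -0.48 for Ptprc and Csf1r of leukocytes. They were 3.61 and 4.31 for Nefl and Nefm of neurons, with deletion 2 and its high neural markers included. They were -0.32 and -1.52 for Col2a1 and Acan of cartilage, 0.27 for Epcam of epithelium, and -1.72 and -1.09 for Hbb-bt and Hba-a1 of red cells. Of all these leading markers edgeR called none (adjusted p 0.896 to 0.998). These shifts lie beside the matrix gene differences between litters, and their part in them was not tested.

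The members kept fixed proportions to different degrees. Per kilobase, the ratio of Hapln1 to Has2 ran from 1.90 to 3.51 over the 9 libraries with a median of 2.41, and its log2 SD of 0.315 was far below the SDs of the single genes, 1.18 and 1.30. Vcan over Has2 ran from 1.60 to 4.15 (log2 SD 0.447) and Vcan over Hapln1 from 0.602 to 1.79 (log2 SD 0.474). In contrast, Has2 over Hyal2, a synthase over a hyaluronidase, ran from 0.0620 to 0.624 (log2 SD 1.12), with the lowest values in wild type 2 and wild type 1. Vcan over Adamts5, a substrate over its protease, ran from 0.746 in wild type 1 to 12.4 in wild type 4 (log2 SD 1.39), and the deletion libraries lay between, at 2.23 to 9.60. Adamts5 over Adamts9 ran from 3.10 to 6.54, and its log2 SD of 0.357 was close to those of the single genes, 0.462 and 0.380.

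**Figure D4:**
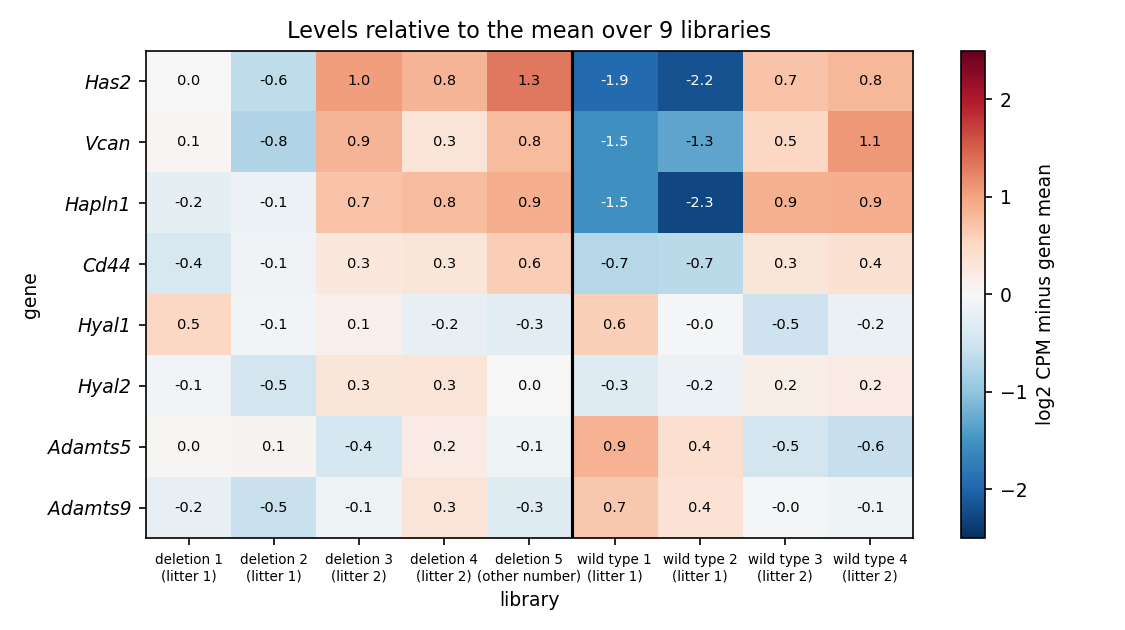
Log2 CPM of the 8 tested genes in each library minus the mean of the gene over 9 libraries, deletion left and wild type right of the line, with the litter under each library. Has2, Vcan and Hapln1 share a pattern with wild type 1 and 2 lowest (-2.3 to -1.3), and Adamts5 and Adamts9 are highest in wild type 1 (0.9 and 0.7).

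Among 9967 genes with a mean of at least 10 CPM, the profile nearest to that of Has2 over the 9 libraries was Hapln1, at a root mean square distance of 0.296 on the log2 scale, beside a spread of 1.23 of Has2 about its own mean. Next came Sox9, a transcription factor of cushion mesenchyme and cartilage, at 0.352, and Tgfbi, a secreted matrix protein, at 0.403, and Vcan had rank 4. For Hapln1 the nearest were Sox9 (0.235), Has2 (0.296) and Erbb3, a neuregulin receptor (0.305). For Vcan they were Tgfbi (0.195), Hmga2, a chromatin protein of embryonic cells (0.255), and Sox9 (0.277). The named neighbours were also higher in the second litter, by log2 1.54 for Sox9, 1.49 for Tgfbi, 1.60 for Hmga2 and 1.90 for Erbb3. They were picked by nearness over these same libraries, so that step follows from the choice and is no separate result.

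The wider pathway was read from lists of further genes, and no list was tested as a whole. Over the 9 libraries 50.6% of all genes had a fold change above 0, a share that stands beside each such count below. Within the litters, where no such share is given, the all-gene median log2 fold change was 0.016 in the first and -0.00028 in the second. Calls between litters stand beside 5.48% of all genes higher and 4.17% lower. All 8 enzymes listed around hyaluronan precursors had a fold change above 0 in deletion against wild type over the 9 libraries. Their median log2 was 0.13, with 0 called. Among them Uxs1 (log2 fold change 0.043) uses up such a precursor, UDP-glucuronic acid, and does not supply it. With litter as a factor 7 of 8 were above 0, within the second litter 6 of 8 (median log2 0.13) and within the first 7 of 8 (median log2 0.14). Ugp2, which makes UDP-glucose and had the highest level per kilobase of the list (126 CPM per kilobase over 9 libraries), had a log2 fold change of 0.054 (SE 0.13, edgeR adjusted p 0.977). Gfpt2, an enzyme of hexosamine synthesis, was higher in the second litter than in the first (log2 0.81, edgeR adjusted p 0.0230), the only call of the list there.

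Of the other hyaluronan receptors and binders, 12 of 17 were tested, with 6 above and 6 below 0 and 0 called. Itih5, a hyaluronan-binding heavy chain, averaged 35.2 ± 7.17 CPM in deletion (SD, n = 5) and 22.4 ± 7.56 CPM in wild type (SD, n = 4; log2 0.65, SE 0.24, unadjusted p 0.0211, edgeR adjusted p 0.896). Itih3, of the same family, was at 0.356 to 2.20 CPM in deletion and 0 to 0.291 CPM in wild type. It passed the filter on low counts through the deletion libraries, where it was higher, so no test is given for it. Habp4 had the highest level per kilobase at 16.5. Stab1, a scavenger receptor for hyaluronan, was lower in the second litter than in the first (log2 -0.90, edgeR adjusted p 0.0250), the only call of this list between litters. Of the other degradation genes, 10 were in the count tables and 6 were tested, with 3 above and 3 below 0 and 0 called. Hexa, a lysosomal hexosaminidase, led at 83.5 CPM per kilobase, and Tmem2, a cell surface hyaluronidase, was higher in the second litter (log2 0.63, edgeR adjusted p 0.0131).

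Of the large proteoglycans and partners of versican, 1 of 8 was above and 7 below 0 in deletion against wild type, beside 50.6% of all genes above 0. Their median log2 was -0.25, with 0 called. Tnc, which encodes the versican ligand tenascin-C, averaged 168 ± 32.1 CPM in deletion (SD, n = 5) and 264 ± 74.1 CPM in wild type (SD, n = 4; log2 -0.65, SE 0.19, unadjusted p 0.00706, edgeR adjusted p 0.896). Fbln2 (fibulin-2), the highest of the list at 288 CPM per kilobase, had a log2 fold change of -0.36 (unadjusted p 0.0402, edgeR adjusted p 0.896) and Acan (aggrecan) of -1.52 (unadjusted p 0.0476, edgeR adjusted p 0.896). Ncan (neurocan), a proteoglycan of nervous tissue, was at 22.5 CPM in deletion 2, the library with the neural markers, and at 0.372 to 0.835 CPM in the other 4 deletion libraries, against 0.291 to 0.546 CPM in wild type. Its log2 fold change of 3.58 (unadjusted p 0.0228, edgeR adjusted p 0.896) became 0.67 without deletion 2 (unadjusted p 0.155, edgeR adjusted p 0.901). Within the litters, 6 of 8 were above 0 in the second (median log2 0.047) and 1 of 8 in the first (median log2 -0.44). Between litters, Fbn2 (fibrillin-2) was higher in the second (0.65, edgeR adjusted p 0.0103) and Acan lower, as given above.

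The list of other proteoglycanases and inhibitors had 3 of 15 above and 12 below 0, a median log2 of -0.19 and 0 called. It also counts Fam20b, which is neither a protease nor an inhibitor of one. Mmp2 led at 205 CPM per kilobase (log2 fold change -0.11, edgeR adjusted p 0.948). Within the second litter 7 of 15 were above 0 (median log2 -0.040) and within the first 3 of 15 (median log2 -0.39). Between litters, Adamts8 was higher (0.86, edgeR adjusted p 0.0465) and Mmp16 lower (-0.93, edgeR adjusted p 0.0402) in the second. The chondroitin sulfate enzymes had 7 of 17 above and 10 below 0, a median log2 of -0.044 and 0 called, and 11 of 17 were above 0 within the second litter and 5 of 17 within the first. Between litters, Csgalnact1 (-0.74, edgeR adjusted p 0.0146) and Csgalnact2 (-0.60, edgeR adjusted p 0.0332), which start the chondroitin chain, were lower in the second. Highest of the list was Chpf, a subunit of the chondroitin polymerase (39.5 CPM per kilobase, log2 fold change -0.24, unadjusted p 0.0432, edgeR adjusted p 0.896).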

How the data were processed

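Raw read counts by gene symbol were deposited, 1 table per library, made by the authors from low-input SMART-Seq libraries of outflow tract RNA, per the labels' protocols. STAR 2.5.0c, Picard, HTSeq 0.6.0, DESeq2 and mm10 were used, per the submitters' processing notes; for annotation and strand setting, the sources used here give nothing. Another 5 rows without a gene (20.6% to 23.5% of reads) were left out.

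Counts were tested over all genes with edgeR 4.0.16 (R 4.3.3; robust quasi-likelihood test, TMM, filterByExpr with a minimum count of 10, Benjamini-Hochberg adjusted p of 0.05, two-sided). CPM use TMM-scaled library sizes, log2 CPM a prior count of 2, and lengths GENCODE exons on mm10. Each SE of an edgeR value was derived as the absolute log2 value over the square root of the F statistic of its test. DESeq2 1.42.0 and limma 3.58.1 (voom with sample weights) were alternatives. The edgeR genotype fit was also run on simulated counts without a litter effect, which cannot show how it performs where litters differ. Same-numbered libraries of the 2 genotypes deviated together (correlations 0.242, 0.137, 0.227 and 0.176), so the numbers were taken to pair them, by the values and not by the labels. Numbers and litters run together, so these correlations cannot tell a pairing by number from a shared litter.

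The members, lists and tests were chosen with earlier results of these data known. Genes named are the members, in each list those with an unadjusted p under 0.05 (up to 4) and the highest per kilobase, the first 2 markers of each cell type list, the 3 nearest profiles of Has2, Vcan and Hapln1, and Nkx2-5. Calls between litters within the lists, and Prrx1, Tbx20 and Col9a1, were named after their values were seen.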

Additional observations from a re-analysis of the deposited data

Results flagged for a closer look

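Has3 had 0.713 CPM in deletion 4 (20 reads), far from the other deletion libraries at 0 to 0.159 CPM. Of 20 groups examined for such gaps, chance flags about 1 in 20.

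The genotype difference moved with litter for Has2 (-1.60, second minus first litter on the log2 scale), Vcan (-1.34) and Hapln1 (-1.81), which passed DESeq2 but not edgeR (adjusted p 0.277, 0.498 and 0.224). Hapln1 was lower in both deletion libraries than in either wild type of the second litter and higher in both in the first. Adamts5 did the reverse, with 1.03 (edgeR adjusted p 0.480), and neither edgeR nor DESeq2 passed for it.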

How the results depend on the processing

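For deletion against wild type, the number of genes called was 0 with edgeR, 38 with DESeq2, 4 with voom, 69 with DESeq2 and the replicate block (added after the data were seen), 6 in the second litter alone and 0 to 1 when each library was left out. With the replicate block edgeR called 0 genes, Has2 was at 0.94 (adjusted p 0.899), and no member's call changed. No member passed under any of 13 other settings per gene (lowest adjusted p 0.462, Has2 in the first litter alone) or with 1 library left out. Directions turned for Adamts5 with voom (0.19), for Hyal1 in the first litter alone (-0.047), in the second alone for Vcan (-0.22), Hapln1 (-0.15), Cd44 (-0.053), Adamts5 (0.42) and Adamts9 (0.18), and with deletion 5 added to the second for Vcan (-0.15), Hapln1 (-0.090), Adamts5 (0.42) and Adamts9 (0.053). With each library left out, values ran from 0.39 to 1.18 for Has2, -0.036 to 0.83 for Vcan, 0.044 to 0.81 for Hapln1, 0.11 to 0.47 for Cd44, -0.13 to 0.28 for Hyal1, -0.037 to 0.16 for Hyal2, -0.40 to 0.11 for Adamts5 and -0.54 to -0.23 for Adamts9. Between litters, DESeq2 called 3141 genes and Adamts5 (-0.66, adjusted p 0.0246), and without a filter on low counts Has2 (2.02), Vcan (1.58) and Hapln1 (1.85) no longer passed. Leaving out each library gave 346 (without wild type 3) to 1717 calls beside 1594, fewer by over 1.5 times also without wild type 1 (982), wild type 4 (391), deletion 3 (420) or deletion 4 (784). Values then ran from 1.76 to 2.29 for Has2, 1.34 to 1.88 for Vcan, 1.49 to 2.10 for Hapln1, 0.71 to 0.89 for Cd44, -0.61 to -0.30 for Hyal1, 0.40 to 0.55 for Hyal2, -0.89 (adjusted p 0.0342, without deletion 4) to -0.45 for Adamts5 and -0.25 to 0.098 for Adamts9. For the interaction, DESeq2 called 184 genes, with Has2 at -1.61, Vcan at -1.35 and Hapln1 at -1.82. Reading deletion 5 as second litter gave 10, and leaving out each library 0 to 241 (without deletion 1; 9 without wild type 1). Those ranges were -1.88 to -1.24 for Has2, -1.69 to -0.88 for Vcan, -2.23 to -1.48 for Hapln1, -0.66 to -0.34 for Cd44, 0.014 to 0.69 for Hyal1, -0.051 to 0.34 for Hyal2, 0.67 to 1.30 for Adamts5 and 0.82 to 1.26 for Adamts9. Adamts9 was at 3.16 CPM per kilobase with its longest transcript as length. For settings that dropped libraries, the fewer libraries are part of the change; the cause of the others was not tested. With 2 libraries per genotype and litter, and few reads of Has1 and Has3, those genes were not tested.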
